A study of Mus musculus with 6 samples.

Results

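The mitochondrial ribosomal protein genes were taken as every gene whose symbol is Mrpl or Mrps followed by a number and, in some, a letter. The rule found 77 of the 47729 genes in the tables, 48 named for the large subunit and 29 for the small subunit. All are nuclear genes. RNA-seq had been run on activated CD8+ T cells taken from the spleens of mice. The 3 vehicle libraries were compared with 3 libraries of cells given blebbistatin, an inhibitor of the myosin II motor, at 2 µM for 24 h. The labels give no strain, sex, age or genetic alteration for either group, and do not say what the vehicle was. Nothing in them tells separate mice or cultures from repeat libraries, so p-values describe the spread among these 6 libraries, part of which may be technical.

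The mitochondrial ribosome makes the few proteins encoded by mitochondrial DNA, all of them subunits of the respiratory chain or the ATP synthase. Its RNAs are encoded in the mitochondrion, while its proteins are encoded in the nucleus, made in the cytosol and imported. Some of these proteins have bacterial counterparts and others are particular to mitochondria. In T cells, activation is accompanied by growth of the mitochondrial mass and of mitochondrial translation.

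Levels are given in TPM, the share of a library's transcripts corrected for transcript length. Differences are log2 fold changes of blebbistatin over vehicle on log2(TPM + 1), tested with limma over the 13372 genes that averaged 1 TPM or more. A gene passed at a Benjamini-Hochberg adjusted p under 0.05. TPM is a relative unit, and in bulk RNA fewer cells of a type and less RNA per cell cannot be told apart.

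No mitochondrial ribosomal protein gene passed the test, yet most of them stood lower in the blebbistatin libraries. Of the 77 genes, all of which were tested, 0 passed in limma, where 1.82% of all genes tested did (1.4% as higher, 0.426% as lower). At an unadjusted p under 0.05, limma placed 20 of the 77 lower (26.0%) and 1 higher (1.3%), where the shares over all genes tested were 9.99% and 12.9%. The log2 fold change was below 0 in 57 of the 77 (74.0%), against 44.9% of all genes tested. Its median was -0.091 over the 77 genes and 0.027 over all genes tested. Adjusted p-values ran from 0.0895 for Mrps18a to 0.98 for Mrpl16, the latter named after its value was seen. The plot of fold changes shows the whole range, from Mrps24 at -0.89 to Mrpl45 at 0.21.

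**Figure D1:**
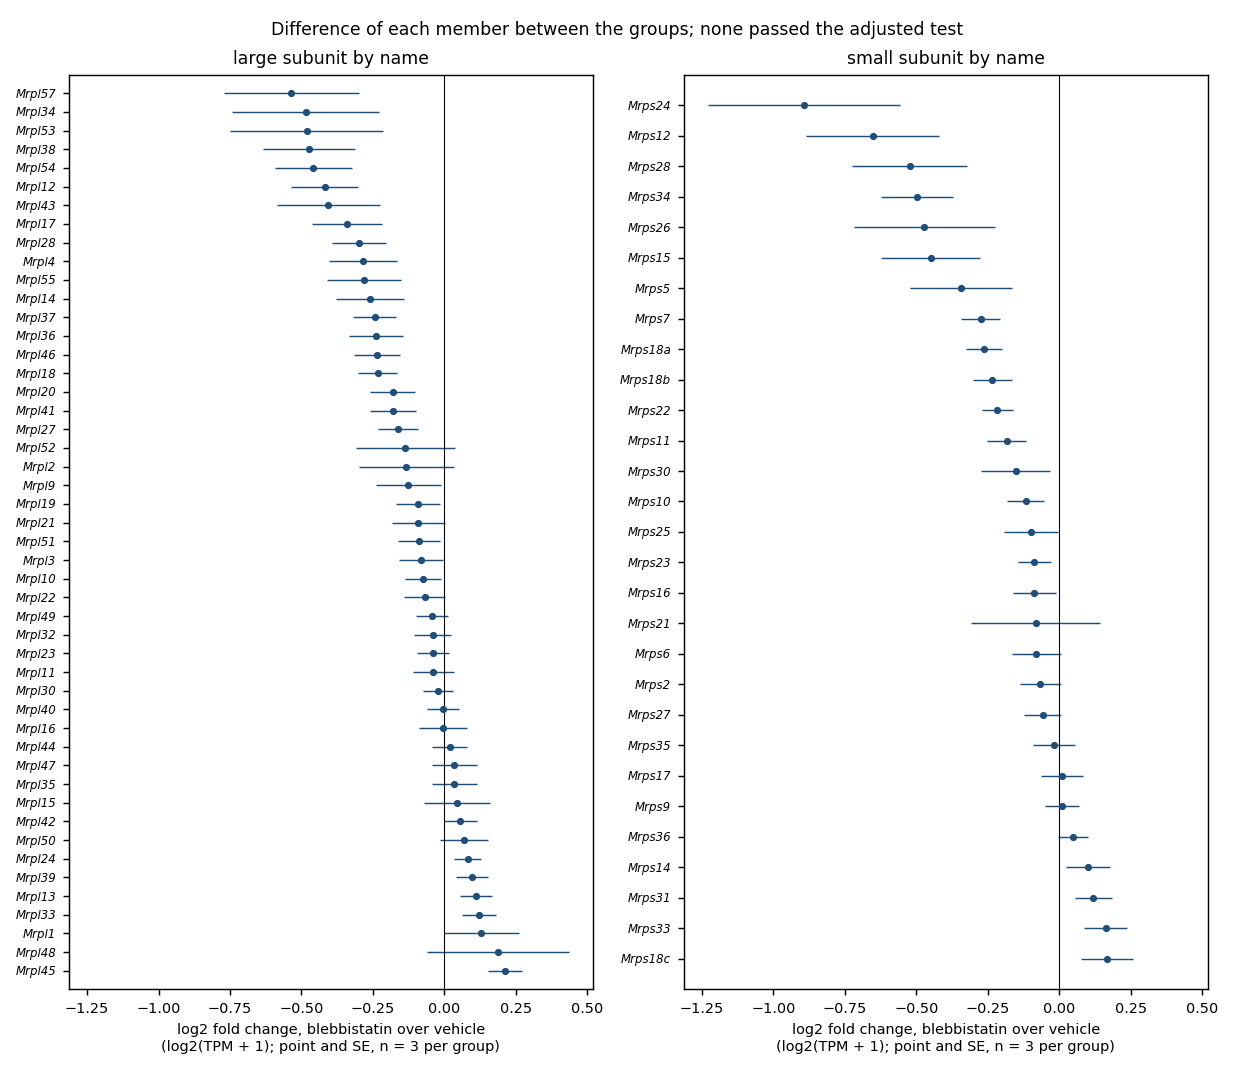
Log2 fold change of blebbistatin over vehicle on log2(TPM + 1) for each gene, with the large subunit on the left and the small subunit on the right; points are estimates and bars are 1 SE, with 3 libraries per group. Mrps24 (-0.89) and Mrps12 (-0.65) lie farthest to the left with wide bars, and Mrpl45 (0.21) farthest to the right.

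The summed level of the 77 genes was 6242, 6352 and 6185 TPM in vehicle libraries 1 to 3. It was 5341, 6025 and 5648 TPM in blebbistatin libraries 1 to 3. The groups did not overlap, and the means were 6259.9 ± 85.2 TPM (SD, n = 3) and 5671 ± 343 TPM (SD, n = 3). The 48 large subunit genes summed to 4085 ± 57.5 TPM (SD, n = 3) in vehicle and 3753 ± 228 TPM (SD, n = 3) in blebbistatin. For the 29 small subunit genes the sums were 2175 ± 28.04 TPM (SD, n = 3) and 1919 ± 121 TPM (SD, n = 3). The large sum was 1.87 to 1.88 times the small sum in vehicle and 1.93 to 2.01 times in blebbistatin. The median fold change was -0.089 for the large subunit and -0.100 for the small. Without blebbistatin 1 these medians were -0.043 and -0.112. The difference between the subunits was not tested.

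The blebbistatin libraries did not stand equally far from vehicle. Each was set against the vehicle mean of each gene, and the median deviation over the 77 genes was -0.175 in blebbistatin 1, -0.050 in blebbistatin 2 and -0.094 in blebbistatin 3. Over all genes tested the same medians were 0.050, 0.016 and 0.025. Vehicle libraries, each set against the mean of the other vehicle libraries, had member medians of 0.008, 0.020 and -0.027. Blebbistatin 1 was the lowest of the 6 libraries in 43 of the 77 genes, blebbistatin 2 in 14 and blebbistatin 3 in 6. The highest of the 6 was blebbistatin 1 in 13 genes, blebbistatin 2 in 7 and blebbistatin 3 in 6. These counts were not made over all genes tested. The coefficient of variation within a group had a median of 4.1% in vehicle and 8.5% in blebbistatin over these genes. Over genes averaging 5 TPM or more, its median was 5.2% and 8.4%. It exceeded 20% in 3 of the 77 genes in vehicle (3.9%) and 15 in blebbistatin (19.5%), against 5.9% and 11.1% of genes averaging 5 TPM or more. Groups did not overlap in 25 genes that were lower in blebbistatin (32.5%) and 5 that were higher (6.5%), where the shares over all genes tested were 13% and 18%.

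**Figure D2:**
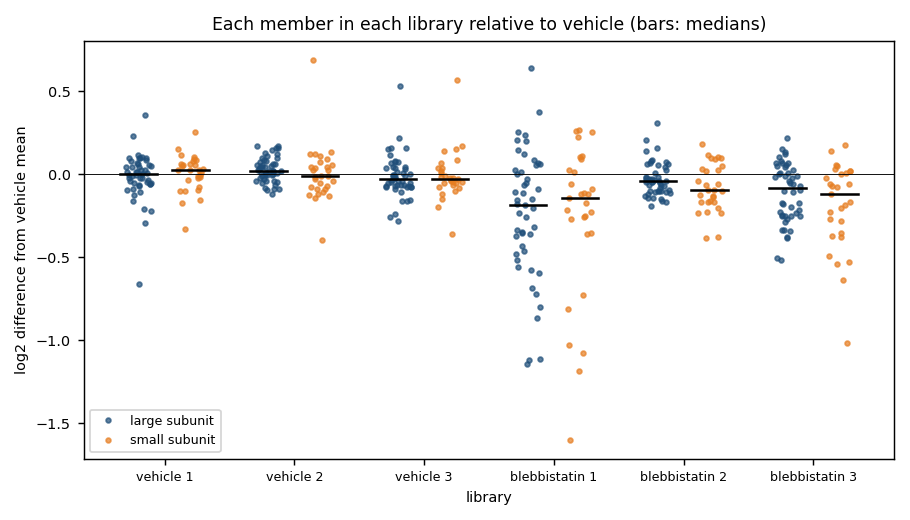
Deviation of each gene on log2(TPM + 1) in each library, with blebbistatin libraries set against the vehicle mean and vehicle libraries against the mean of the other vehicle libraries; each point is a gene. The medians of the blebbistatin libraries were -0.175, -0.050 and -0.094, and those of the vehicle libraries lay between -0.027 and 0.020.

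The start of the coding sequence of Mrps24 and Mrps12, the genes furthest below vehicle, is shown with that of Mrpl57, furthest below vehicle in the large subunit, to show their base content. Mrpl45 and Mrpl1 are shown as genes with a fold change above 0, although blebbistatin 2 lay below every vehicle library for Mrpl1, whose sign turned under a correction for length and GC content. Mrpl48, not shown, had a higher fold change than Mrpl1 (0.19 against 0.13) and a whole-transcript GC share of 49.2%. Mrpl1 has the lowest such share of the 77 genes, at 41.4%, where their median is 50.5%. The genes shown were picked and do not stand for the 77. Each line gives the first 90 coding bases, with G and C in capitals. They were read from the GENCODE M21 transcripts of GRCm38, the build called mm10 in the submitters' notes. Mrps24 lies at chr11:5703983-5715680 on the minus strand and Mrps12 at chr7:28739641-28741820 on the minus strand. Mrpl57 lies at chr14:57826239-57828745, Mrpl45 at chr11:97315716-97329920 and Mrpl1 at chr5:96209493-96266727, all on the plus strand. G and C make up 61.1% of the coding bases of Mrps24, 63.5% of Mrps12, 60.8% of Mrpl57, 49.8% of Mrpl45 and 41.6% of Mrpl1.
Mrps24: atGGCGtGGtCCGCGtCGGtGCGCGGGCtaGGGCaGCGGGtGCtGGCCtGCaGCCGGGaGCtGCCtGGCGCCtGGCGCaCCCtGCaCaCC
Mrps12: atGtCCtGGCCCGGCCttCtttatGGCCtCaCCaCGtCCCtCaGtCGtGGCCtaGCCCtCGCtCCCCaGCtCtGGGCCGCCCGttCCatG
Mrpl57: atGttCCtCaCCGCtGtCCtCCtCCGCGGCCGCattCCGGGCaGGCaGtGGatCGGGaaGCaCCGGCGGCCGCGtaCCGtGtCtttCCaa
Mrpl45: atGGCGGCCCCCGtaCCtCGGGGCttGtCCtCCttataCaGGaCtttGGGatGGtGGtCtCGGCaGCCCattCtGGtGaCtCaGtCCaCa
Mrpl1: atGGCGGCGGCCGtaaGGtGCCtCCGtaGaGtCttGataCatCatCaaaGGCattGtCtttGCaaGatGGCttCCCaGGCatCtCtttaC

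The genes furthest below vehicle in the small subunit were Mrps24, Mrps12 and Mrps28. Mrps24, the counterpart of a bacterial protein at the path of messenger RNA entry, stood at 119.9, 109 and 112 TPM in vehicle and 36.9, 109 and 55.7 TPM in blebbistatin. Blebbistatin 1 and 3 were far below every vehicle library, while blebbistatin 2 lay at the edge of the vehicle range. The fold change was -0.89 (SE 0.34, limma adjusted p = 0.184), and 15.4% of the exonic bases overlap Urgcp. Mrps12, the counterpart of the bacterial protein at the decoding site, stood at 90.7, 99.3 and 92.0 TPM in vehicle and 40.8, 85.3 and 60.0 TPM in blebbistatin. Its fold change was -0.65 (SE 0.23, limma adjusted p = 0.169). Mrps28 stood at 67.6, 66.6 and 63.2 TPM against 31.8, 58.7 and 50.3 TPM, again with blebbistatin 1 lowest and blebbistatin 2 nearest to vehicle (log2 fold change -0.52, SE 0.20, limma adjusted p = 0.188).

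In the large subunit the genes furthest below vehicle were Mrpl57, Mrpl34 and Mrpl53. Mrpl57, whose whole transcript had a GC share of 42.3%, stood at 28.3, 27.9 and 31.3 TPM in vehicle and 12.89, 26.997 and 22.09 TPM in blebbistatin (log2 fold change -0.54, SE 0.24, limma adjusted p = 0.23). Mrpl34, the counterpart of a bacterial large subunit protein, stood at 141, 153 and 140.3 TPM against 64.9, 142 and 118 TPM. Its groups overlapped because blebbistatin 2 lay within the vehicle range (log2 fold change -0.49, SE 0.26, limma adjusted p = 0.30). Mrpl53, a protein of the stalk base, was the lowest of the large subunit genes at 9.12, 9.40 and 7.58 TPM against 3.48, 8.73 and 6.63 TPM. Of its exonic bases, 88.0% overlap other genes, and without strand information the reads may belong to either.

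Other genes differed by less, but alike in all 3 blebbistatin libraries. Mrps18a, placed in the large subunit by structural work despite its name, stood at 77.8, 81.9 and 75.8 TPM in vehicle and 61.2, 66.6 and 68.0 TPM in blebbistatin. Its fold change was -0.26 (SE 0.06, limma adjusted p = 0.0895), the smallest adjusted p of the 77 genes. Mrps22, a small subunit protein particular to mitochondria and altered in an inherited mitochondrial disease, stood at 61.0, 62.3 and 59.8 TPM in vehicle. In blebbistatin it stood at 51.0, 54.2 and 52.0 TPM (log2 fold change -0.22, SE 0.05, limma adjusted p = 0.0985), and the groups did not overlap. Mrps18b, a paralog of Mrps18a, stood at 112, 120.3 and 131 TPM against 101.15, 107.6 and 99.52 TPM (log2 fold change -0.23, SE 0.07, limma adjusted p = 0.127). The third paralog, Mrps18c, had the opposite sign, at 104, 87.1 and 87.7 TPM against 112, 105 and 95.8 TPM, with groups that overlapped (log2 fold change 0.17, limma adjusted p = 0.314). Another gene overlaps 30.5% of the exonic bases of Mrps18b and 23.2% of those of Mrps18c.

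Mrps34, a small subunit protein needed for the stability of its ribosomal RNA, stood at 49.1, 46.1 and 53.0 TPM in vehicle and 29.4, 41.7 and 33.9 TPM in blebbistatin. Its groups did not overlap (log2 fold change -0.50, SE 0.13, limma adjusted p = 0.0988), and 77.8% of its exonic bases overlap other genes. Mrps15, the small subunit gene with the highest level, stood at 167, 172 and 168 TPM against 95.6, 164 and 119.5 TPM (log2 fold change -0.45, limma adjusted p = 0.187). Mrps16 and Mrps21 were the next highest, with means of 148 and 134 TPM in vehicle and fold changes of -0.09 and -0.08. Mrps21 varied within vehicle from 110.2 to 179.6 TPM. Mrps27, a pentatricopeptide repeat protein, and Mrps30, now placed in the large subunit, had fold changes of -0.06 and -0.15. Mrps36, since placed in the oxoglutarate dehydrogenase complex, stood at 96.8 ± 2.29 TPM (SD, n = 3) against 100.1 ± 3.52 TPM (SD, n = 3).

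The small subunit genes with the lowest level were Mrps35, Mrps25 and Mrps31, with vehicle means of 16.5, 24.4 and 27.2 TPM. Their fold changes were -0.02, -0.10 and 0.12, and 69.8% of the exonic bases of Mrps25 overlap another gene. Mrps31 stood at 28.2, 25.7 and 27.6 TPM against 29.43, 29.23 and 30.02 TPM, without overlap. Mrps33 stood at 85.6, 89.6 and 78.9 TPM against 101.2, 87.77 and 95.84 TPM (log2 fold change 0.16, limma adjusted p = 0.246). Moving Mrps18a and Mrps30 to the large subunit gave medians of -0.092 over 50 large subunit genes and -0.088 over 27 small subunit genes.

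**Figure D3:**
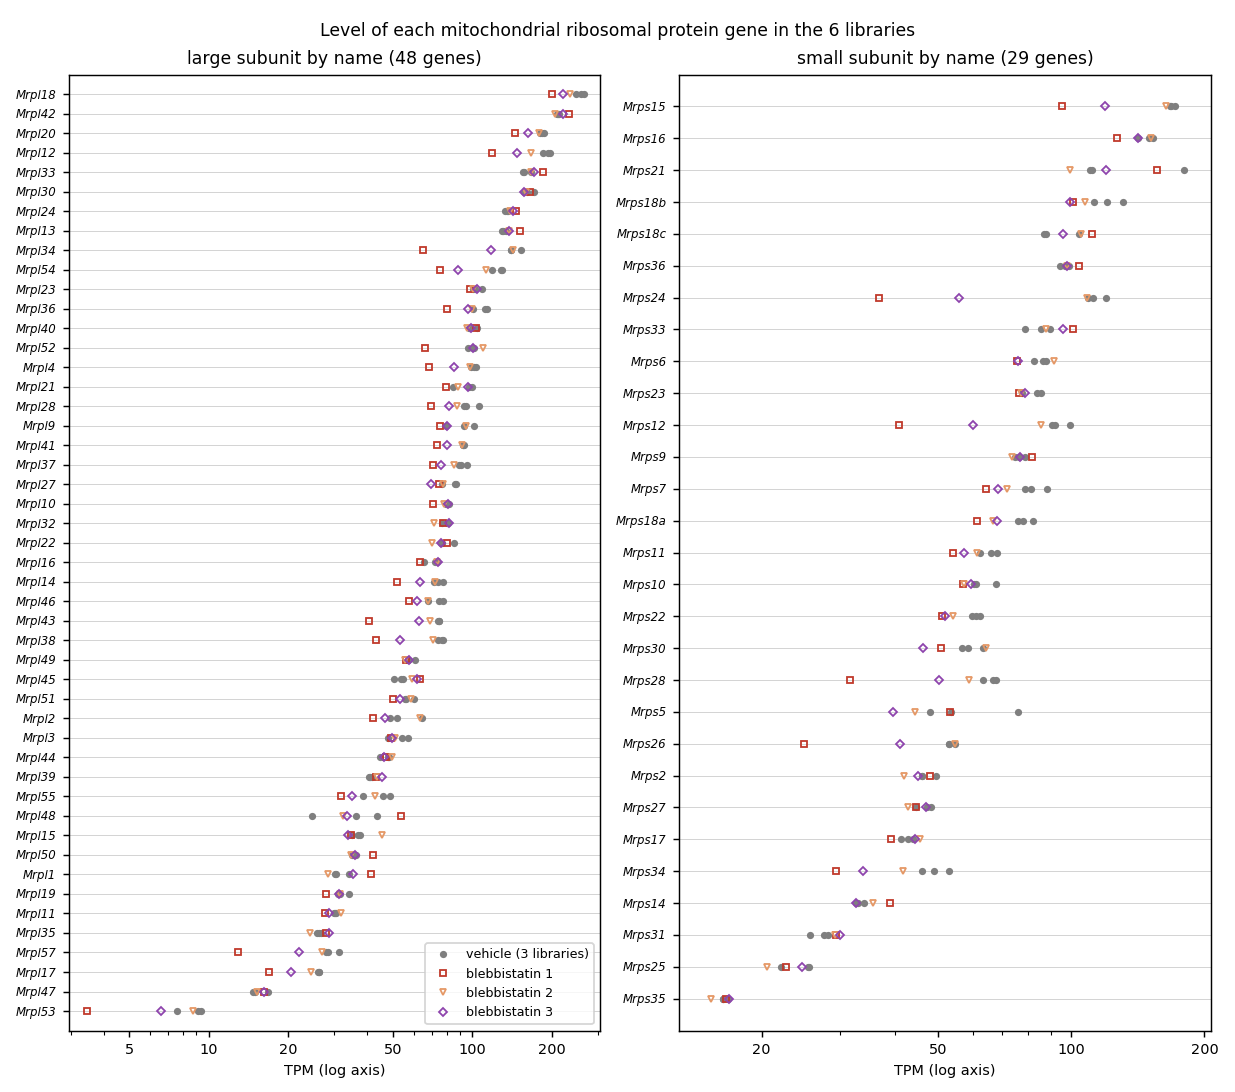
Level of each gene in TPM on a log axis in the 6 libraries, with the large subunit on the left and the small subunit on the right, ordered by level; filled points are vehicle and open symbols are the blebbistatin libraries. Blebbistatin 1 lies apart on the low side for Mrps24, Mrps12 and Mrpl34, while Mrpl18 (257 TPM) and Mrps15 (169 TPM) head the subunits by vehicle mean.

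Of the 48 large subunit genes, 4 stood higher in every blebbistatin library than in any vehicle library. They were Mrpl45, Mrpl13, Mrpl39 and Mrpl24. The fold changes of Mrpl13, Mrpl39 and Mrpl24 were 0.11, 0.10 and 0.08 (limma adjusted p = 0.288, 0.333 and 0.341). Mrpl45, which lines the exit of the peptide tunnel and tethers the ribosome to the inner membrane, stood at 53.5, 50.6 and 54.7 TPM in vehicle and 63.3, 59.2 and 61.7 TPM in blebbistatin. Its fold change was 0.21 (SE 0.06, limma adjusted p = 0.115), and it was the gene counted as higher at an unadjusted p under 0.05. Mrpl48 stood at 24.75, 36.04 and 43.63 TPM against 53.5, 32.3 and 33.6 TPM, a spread that exceeded the difference (log2 fold change 0.19, SE 0.25). Mrpl1, the counterpart of bacterial L1, stood at 30.5, 30.2 and 34.0 TPM against 41.2, 28.4 and 35.1 TPM, and its groups overlapped. The large subunit genes with the highest level were Mrpl18, Mrpl42 and Mrpl20. Mrpl18, the counterpart of the bacterial protein that binds 5S ribosomal RNA, stood at 265, 258 and 248 TPM against 200.4, 235 and 221 TPM (log2 fold change -0.23, limma adjusted p = 0.122). Mrpl42 and Mrpl20 had vehicle means of 211 and 183 TPM and fold changes of 0.06 and -0.18.

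Grouped by place in the ribosome, the lists differed in their medians, with 0 genes passing in each; the differences between lists were not tested. The 4 genes of the stalk, the flexible arm that recruits translation factors, summed to 310.3 ± 6.51 TPM (SD, n = 3) in vehicle and 256 ± 33.1 TPM (SD, n = 3) in blebbistatin. Their median fold change was -0.246, and by library it was -0.433, -0.017 and -0.208 in blebbistatin 1, 2 and 3. Mrpl12, the stalk protein that also binds the mitochondrial RNA polymerase, stood at 193, 197 and 184 TPM against 118, 167 and 147 TPM, without overlap (log2 fold change -0.42, SE 0.12, limma adjusted p = 0.116). Mrpl53, whose exons mostly overlap other genes as given above, had the lowest fold change of the 4 at -0.48, while Mrpl10 and Mrpl11 had -0.07 and -0.04.

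The 6 genes of the exit tunnel summed to 412 ± 2.88 TPM (SD, n = 3) in vehicle and 417 ± 6.92 TPM (SD, n = 3) in blebbistatin, with a median fold change of -0.003. They include Mrpl45, Mrpl47 and Mrpl17. Mrpl47, the counterpart of bacterial L29, stood at 14.8, 15.0 and 16.7 TPM against 16.2, 15.3 and 16.2 TPM, with groups that overlapped. Mrpl17 stood at 26.0, 26.2 and 26.1 TPM against 16.996, 24.36 and 20.52 TPM (log2 fold change -0.34, limma adjusted p = 0.172). The 7 genes of the central protuberance, a ridge of the large subunit that contacts the small one, summed to 668 ± 7.30 TPM (SD, n = 3) against 586 ± 30.7 TPM (SD, n = 3), with a median of -0.233. The 46 genes listed with a bacterial counterpart had a median of -0.089, and the other 30 had -0.118, with Mrps36 in neither list. Of the Mrps18 paralogs, only Mrps18c was in the first list. Mrps18a and Mrps18b were counted with the 30, so these are not all particular to mitochondria. Mrpl44, which has an RNase III-like fold, and Mrpl41, both particular to mitochondria, had fold changes of 0.02 and -0.18.

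Within the blebbistatin libraries the differences moved with the GC content of the transcripts. Across the 77 genes, Pearson's r between a gene's deviation and the GC share of its coding transcripts was -0.585 in blebbistatin 1, -0.231 in blebbistatin 2 and -0.581 in blebbistatin 3. The genes share a library and are not independent replicates. In the vehicle libraries r was -0.013, -0.004 and 0.016. Over 10944 protein-coding genes tested, r was -0.554, -0.049 and -0.310 in the blebbistatin libraries. With the GC share of all annotated transcripts, r over the 77 genes was -0.739, -0.266 and -0.69 in blebbistatin 1, 2 and 3. Over the protein-coding genes it was then -0.556, -0.048 and -0.31. The 8 ribosomal protein genes above 58% GC had a median deviation of -0.725, -0.119 and -0.397 in blebbistatin 1, 2 and 3, while protein-coding genes in that range had -0.377, -0.008 and -0.164. The 14 at or below 46% GC had 0.074, -0.027 and 0.034, where protein-coding genes had 0.235, 0.032 and 0.098. The part of GC content in the differences was not tested beyond the correction below, and r of the 77 genes with log2 transcript length was 0.117, -0.018 and 0.127 in the blebbistatin libraries and 0.059, -0.223 and 0.137 in the vehicle libraries.

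**Figure D4:**
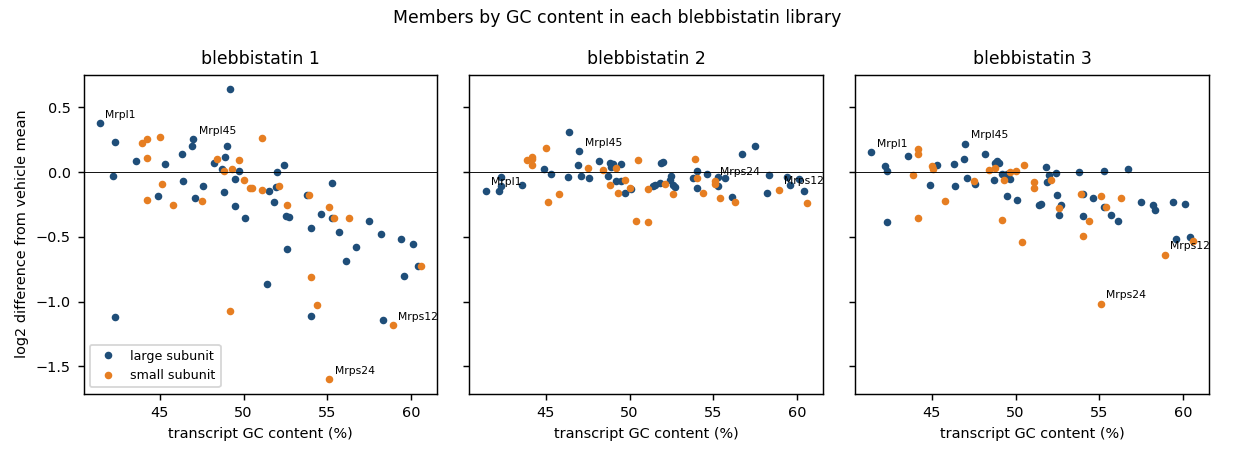
Deviation of each gene from the vehicle mean on log2(TPM + 1) against the GC percentage of its coding transcripts, in each blebbistatin library. Pearson's r across the 77 genes was -0.585, -0.231 and -0.581 in blebbistatin 1, 2 and 3.

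With transcript length and GC content regressed out within each library, 66 of the 77 genes stood below 0 (85.7%), against 52.4% of all genes tested, whose median moved from 0.027 to -0.010. Mrps22, whose GC share is 45.8%, then passed at -0.31 (SE 0.06, limma adjusted p = 0.044), where 2.1% of all genes tested passed as lower and 2.5% as higher. The correction was first run with the length and GC of all annotated transcripts and was changed to coding transcripts after those results were seen. In the first version 67 of the 77 genes stood below 0, and Mrps22 (-0.31, adjusted p = 0.0371) and Mrps18a (-0.22, adjusted p = 0.0438) passed, against 1.79% of all genes as lower and 2.3% as higher. Leaving out blebbistatin 2, the library nearest to vehicle, 12 of the 77 passed as lower in limma, where 4.44% of all genes did, and 3.71% passed as higher. These were 7 large and 5 small subunit genes, with Mrps24 (-1.31), Mrps12 (-0.91) and Mrps15 (-0.65) the furthest below vehicle in the small subunit by the naming rule. Without blebbistatin 1 or without blebbistatin 3, none of them passed.

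Promoters are shown for Mrps22 and Mrpl45, whose differences were alike in all blebbistatin libraries, and for Mrps12, whose differences were not. The 120 bases before the annotated start were read from RefSeq for GRCm38.p6, with motif matches in capitals. Mrps22 has a match to the ETS motif, the site family bound by the biogenesis regulator Gabpa. Mrps12 has 3 matches to the CCAAT box, but its promoter also reaches exons of Sars2, so the matches may belong to either gene. Mrpl45 has no match to the motifs searched. The stretches of Mrps22, Mrps12 and Mrpl45 lie at chr9:98601680-98601799 on the minus strand, chr7:28741822-28741941 on the minus strand and chr11:97315596-97315715 on the plus strand.
Mrps22: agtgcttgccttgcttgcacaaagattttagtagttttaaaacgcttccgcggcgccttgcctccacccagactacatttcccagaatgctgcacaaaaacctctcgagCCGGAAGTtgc
Mrps12: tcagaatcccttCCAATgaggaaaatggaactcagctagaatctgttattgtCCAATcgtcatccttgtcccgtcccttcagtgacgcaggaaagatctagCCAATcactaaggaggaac
Mrpl45: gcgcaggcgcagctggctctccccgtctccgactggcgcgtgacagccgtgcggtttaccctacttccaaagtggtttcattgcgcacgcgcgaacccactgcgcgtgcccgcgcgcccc

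Motifs were searched on both strands of the promoters of 68 of the 77 genes, 74 promoters in all, each 300 bases long, and overlaps between motifs were counted under both. The ETS motif CCGGAAGT was in 12 of them (16.2%), against 3.89% of all 32851 promoters and 8.50% of promoters of tested genes. The YY1 motif AAGATGGCG was in 8 (10.8%), against 1.4% and 3.24%. For the NRF1 motif GCGCATGC it was 8 (10.8%), against 2.71% and 5.49%. Longer forms of these, searched first, were in 5 (6.8%, against 0.63% and 1.6%) and 3 (4.1%, against 0.97% and 2.21%). The CCAAT box was in 30 (40.5%), against 37.41% and 38.06%, and TATAAA in 5 (6.8%), against 13.62% and 6.71%. A match describes the letters only.

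Other genes of mitochondrial translation gave few calls. At an unadjusted p under 0.05, 9.99% of all genes tested were lower and 12.9% higher. Of the 6 subunits listed under other names, 0 passed, with a median fold change of -0.177 and 2 lower at an unadjusted p under 0.05 (33.3%). Ict1, the release factor of the large subunit, stood at 58.03 ± 9.42 TPM (SD, n = 3) in vehicle and 36.6 ± 8.66 TPM (SD, n = 3) in blebbistatin (log2 fold change -0.67, limma adjusted p = 0.117). Dap3, a GTP-binding protein of the small subunit, had a fold change of 0.15, and Chchd1, the highest of the list, -0.02. Of 15 translation factors 0 passed (median -0.007), among them the elongation factor Tufm at 103.6 ± 2.70 TPM (SD, n = 3) against 97.5 ± 7.18 TPM (SD, n = 3). Of 26 assembly and rRNA modification factors 0 passed in limma (median -0.064), and the one with the highest level, Rbfa, had -0.30. At an unadjusted p under 0.05, 8 of the 26 were lower (30.8%) and 2 higher (7.7%). Of the 15 translation factors, 2 were lower by that rule (13.3%) and 1 higher (6.7%). Of 17 mitochondrial aminoacyl tRNA synthetases 0 passed (median -0.103), and the highest was Iars2 at -0.01. At an unadjusted p under 0.05, 1 of the 17 was lower (5.9%) and 1 higher (5.9%).

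Of 19 transcription and RNA factors, 1 passed, as lower. Tbrg4, which acts on the stability of mitochondrial RNA, fell from 102.8, 104.0 and 104.3 TPM in vehicle to 77.7, 86.7 and 84.5 TPM in blebbistatin (log2 fold change -0.32, SE 0.06, limma adjusted p = 0.0472). The call was lost on leaving out any single library except blebbistatin 2, with adjusted p between 0.056 and 0.171. It was also lost with no minimum level (adjusted p = 0.0776), quantile normalization (0.0604), no mean-variance trend (0.0884) and the replicate block (0.146), while its limma fold change stayed below 0 in every alternative run. Polrmt, the mitochondrial RNA polymerase, had a fold change of -0.36 (limma adjusted p = 0.126), Tfam -0.05 and Lrpprc -0.01. In limma, 3 of the 19 were lower (15.8%) and 1 higher (5.3%) at an unadjusted p under 0.05. Of 8 regulators of mitochondrial biogenesis that were tested, 0 passed, and 0 did at an unadjusted p under 0.05. Their fold changes were -0.02 for Myc, -0.10 for Nrf1, 0.04 for Gabpa and -0.11 for Ppargc1b, while Ppargc1a was listed at 0 in every library.

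The mitochondrial mRNAs that this ribosome translates had the opposite sign. All 13 stood above 0, with a median of 0.199, where 44.9% of all genes tested stood below 0. In limma 0 passed, and 5 were higher at an unadjusted p under 0.05 (38.5%, against 12.9% of all genes tested). The summed level of the 13 was 61789, 58256 and 61033 TPM in vehicle and 82673, 65142 and 65992 TPM in blebbistatin. By library their median deviation was 0.396, 0.052 and 0.156 in blebbistatin 1, 2 and 3. The part of GC content in this rise was not tested. Of 81 cytosolic ribosomal protein genes tested, 0 passed, with a median of 0.037 and 23 higher at an unadjusted p under 0.05 (28.4%, against the same 12.9%). The 83 cytosolic genes listed summed to 158600, 158030 and 154660 TPM in vehicle libraries 1 to 3. In blebbistatin 1, 2 and 3 they summed to 149100, 165300 and 164230 TPM, so the groups overlapped. The cytosolic sum was 24.9 to 25.4 times the mitochondrial one in vehicle and 27.4 to 29.1 times in blebbistatin. Whether these lists differ from the 77 genes was not tested.

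The libraries were of like depth, and the labelled cell type matched its markers. Implied fragments ran from 18500000 to 19900000 per library, and the 7 T cell markers summed to 9583 to 9762 TPM in vehicle and 8485 to 9309.9 TPM in blebbistatin, without overlap. Gzmb made up most of that sum, at 7040.1 TPM on average in vehicle and 6164 TPM in blebbistatin (limma adjusted p = 0.11). Platelet markers summed to 47.1 to 55.9 TPM in vehicle and 104 to 120.4 TPM in blebbistatin, and 3 of 3 rose in limma (adjusted p = 0.0156 for Pf4, 0.0079 for Ppbp and 0.0459 for Itga2b). B cell markers summed to 0.55 to 0.80 TPM against 1.303 to 2.103 TPM, and myeloid, CD4, NK and erythroid sums were under 2 TPM in every library. The part of these cells in the differences was not tested.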

How the data were processed

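Messenger RNA was sequenced from 3 vehicle and 3 blebbistatin libraries of activated mouse CD8+ T cells. The submitters' processing notes name DESeq2 1.22.2, StringTie 1.3.4 and HISAT2 2.1.0, and build mm10, without saying what each did. The deposited TPM values, made by the authors, sum to 1000000 in each library. The deposited FPKM values scale fragments by transcript length and depth, and the deposited coverage is a gene's average read depth. Nothing further on the authors' pipeline is stated in these sources. Per the labels' protocols, a TruSeq RNA kit was used, which does not mark strand. The labels do not tie libraries to animals or cultures.

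Depth was read from the commonest ratio of coverage to FPKM, between 5.54 and 5.98, taking 300 bases as 1 fragment. Values hold no counts, so log2(TPM + 1) was tested with limma 3.58.1 in R 4.3.3, in the 13372 genes averaging 1 TPM or more. Moderation followed a mean-variance trend, and p-values were adjusted by Benjamini-Hochberg at 0.05. The scripts were tested on simulated data. Gene names, positions, lengths and GC content came from GENCODE M21, in which 99.1% of identifiers were found, and promoters from RefSeq GRCm38.p6. Figures were drawn with Python 3.11.15 and matplotlib 3.10.9.

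Members and gene lists were chosen with earlier results of these data known. The text names a fixed set of 15 members, and the 3 highest, 3 lowest, 3 largest rises and 3 largest falls in each subunit, whether or not they passed. Related lists give genes that passed or, where none did, the gene with the highest level, and a fixed set. Genes named beyond this were chosen after their values were seen. Alternatives changed the pseudocount, the minimum level, the unit, the scaling, the model, a correction for length and GC content (its use of coding transcripts was chosen after results were seen), and the libraries included. Replicate numbers shared by the labels did not pair the samples.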

Additional observations from a re-analysis of the deposited data

How the results depend on the processing

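Of 187 genes that passed as higher and 57 as lower over all genes tested, no minimum level left 40 and 9, no mean-variance trend left 23 lower, and the length and GC correction gave 333 and 279. That correction used coding transcripts, a choice made after the data were seen, and the version first run, with all transcripts, gave 306 and 239. The share of calls that were higher was 76.6%, and 54.4% and 56.1% under these corrections. Leaving out 1 library gave 3 to 496 higher and 0 to 594 lower calls: 13 and 0 without vehicle 1, 9 and 2 without vehicle 2, 6 and 1 without vehicle 3, 89 and 31 without blebbistatin 1, 496 and 594 without blebbistatin 2, 3 and 0 without blebbistatin 3. Under the same omissions, 0 to 7 large and 0 to 5 small subunit genes were lower, all of them without blebbistatin 2, and the large median stayed between -0.111 and -0.043. The small subunit had 1 lower call under the length and GC correction and 2 with all transcripts. The small median, -0.100, was -0.129 with median-ratio scaling, -0.139 and -0.137 under the corrections, and -0.155 to -0.090 with 1 library left out. The cause of these shifts was not tested.

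With the replicate block, 0 genes passed as higher and 0 as lower. Same-numbered libraries had correlations of deviations of 0.011, -0.037 and -0.034, and not every library correlated best with its own number. With 3 libraries per group, these values cannot tell whether a shared number marks a shared mouse or day.

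Over 48 of the named genes and 19 alternatives, 852 values kept their sign and side of the threshold. Of the other values, 13 came to pass, 9 (all Tbrg4) no longer passed and 37 turned sign. A further 1 was missing because Ppargc1b was under the minimum level of 5 TPM. Tbrg4 had adjusted p from 0.025 to 0.171, and 0.146 under the replicate block. Under the length and GC correction, then with all transcripts, Mrpl1 was -0.015 and -0.032, Mrpl42 -0.040 and -0.031, Mrpl47 -0.073 and -0.071, Mrps36 -0.026 and -0.040, Gabpa -0.095 and -0.087, and Myc 0.034 and 0.032. Mrps31 was -0.005 with all transcripts. Quantile normalization gave -0.004 for Mrpl47, 0.027 for Chchd1, 0.009 for Iars2, 0.021 for Lrpprc and 0.012 for Myc, and median-ratio scaling -0.012 for Mrpl44. With 1 library left out, ranges that crossed 0 were -0.016 to 0.040 for Mrpl44, -0.040 to 0.364 for Mrpl48, -0.254 to 0.147 for Mrps21, -0.044 to 0.022 for Mrps35, -0.063 to 0.016 for Iars2, -0.037 to 0.025 for Lrpprc, -0.106 to 0.036 for Myc, -0.213 to 0.016 for Nrf1 and -0.127 to 0.026 for Tfam. Depth limits genes at low level, and Mrpl53 had the lowest level of the 77.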
